A study of Mus musculus with 6 samples.

Results

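The genes described here encode the 4 classical systems of axon guidance cues and their receptors: semaphorins with plexins and neuropilins, ephrins with Eph receptors, Slits with Robos, and netrins with Unc5 receptors. Members were the protein-coding genes of GENCODE vM21 whose symbol fell into one of these 9 gene families, 68 of the 55536 genes in the count files, of which 35 were ligands and 33 receptors. They were measured by bulk RNA-seq in 6 libraries of stromal cells from mouse quadriceps, 3 of cells positive (p16+) and 3 of cells negative (p16-) for a tdTomato reporter of p16. This protein, a product of Cdkn2a, blocks the cell cycle and serves as a mark of senescence. All 6 libraries came from reporter mice on the C57Bl/6 strain and from cells gated as CD45-, CD31- and CD29+. Per the labels' protocols, muscle was removed from both quadriceps at 10 weeks of age, the defect received polycaprolactone particles, decellularized extracellular matrix or saline, and tissue was taken 1 or 6 weeks later. Which filler and which time applied to each library, how many animals each held, and which sequences drive the reporter are not given in the sources used here. If filler or time differed between the p16+ and p16- libraries, reporter status cannot be told apart from them in any difference below. Nothing in the labels says that replicates came from separate animals, so the p-values reflect only the spread among these libraries, which may be technical.

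Guidance cues were named for steering growing axons, and the same proteins act between non-neural cells. Secreted semaphorins bind neuropilins, which pass the signal through plexins, while most membrane-bound semaphorins bind plexins directly. Ephrins are tethered to the membrane, by a lipid anchor in the A class and by a transmembrane segment in the B class, and signal into both the Eph-bearing and the ephrin-bearing cell. Slits signal through Robos, and netrins through Dcc, neogenin and the Unc5 receptors. In connective tissue and vessels these systems are known for control of cell migration, cell sorting and branching of vessels and nerves.

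Total counts were 35253406 to 39103909 per library, and the members held 0.258% to 0.287% of them. Cdkn2a, the gene behind the sort, had 6.91, 8.82 and 7.74 CPM in p16+ replicates 1, 2 and 3, and 2.41, 1.77 and 2.20 CPM in p16- replicates 1, 2 and 3. CPM is the usual unit of counts relative to the library's total, here scaled by TMM factors, and per-library values are always given in this order. All 8 fibroblast markers that were checked, among them Pdgfra, Col1a1 and Dcn, were detected in every library, with 5 higher and 1 lower in p16+ (summed 117450 to 123500 CPM against 71782 to 85370). Pecam1 and Cdh5 of endothelium had at most 8.12 and 5.52 CPM in any library, and the B and T cell genes Cd3e, Cd3d and Ms4a1 were at or near 0. Of 6 lymphocyte markers 1 was tested, with a log2 fold change of 2.74, and was not called. The summed level of the 6 was low, at 0.358 to 1.14 CPM in p16+ and 0.0806 to 0.177 CPM in p16-. Schwann cell and other glial markers moved with the groups, with 7 of 10 lower and 1 higher in p16+, and their summed level was 86.6 to 93.5 CPM in p16+ and 119 to 188 CPM in p16-. Of 11 macrophage and other myeloid markers 4 were higher and 0 lower (summed 273 to 316 CPM against 197 to 222), and of 8 pericyte and smooth muscle markers 5 were higher and 0 lower (summed 1943 to 2019 CPM against 1300.3 to 1658). Of 9 endothelial markers 3 were higher and 1 was lower, while their summed level was 70.6 to 98.2 CPM in p16+ and 175 to 208 CPM in p16-. Most of that sum was Tek, the gene that was lower, at 57.9, 42.9 and 46.7 CPM in p16+ and 153, 171 and 180 CPM in p16-. Of 5 satellite cell markers 2 were higher and 0 lower (summed 14.7 to 19.3 CPM against 7.28 to 12.005). The part of these cells in the results below was not tested. In bulk libraries, fewer cells of a type and less RNA per cell cannot be told apart.

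Receptors of each of the 4 systems were among the genes higher in p16+ cells, while the ligands went both ways. For the Slit and Robo system this rests on Robo1 alone, in a call that depended on single libraries. Of the 27 receptor genes with enough counts to be tested, 12 were higher and 2 lower in p16+, and of the 32 tested ligand genes 5 were higher and 7 lower. Over all members 59 of 68 were tested, and 17 were higher and 9 lower at an adjusted p below 0.05 (edgeR's quasi-likelihood test, Benjamini-Hochberg adjustment over all 15903 genes tested). That is 44.1% of the tested members, where 16.7% of all tested genes were called, 8.69% higher and 8.04% lower. The median log2 fold change was 0.45 for the tested receptors, 0.03 for the tested ligands and -0.01 for all genes tested. The difference between ligands and receptors was not tested. With library sizes alone in place of TMM factors, 36.0% of all called genes were higher in place of 52.0%, and among the members 17 were higher and 11 lower. Of the 26 called members 12 changed at least 2-fold, 7 upward and 5 downward. The same count was not made for all called genes, so it has no background here. Values did not overlap between the groups in 29 of the 59 tested members, the 26 called ones among them, and in 33.1% of all tested genes. Of all 2660 called genes 2613 did not overlap. The exact two-sided permutation test over libraries cannot give less than p = 0.1 for a single gene with 3 against 3.

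**Figure D1:**
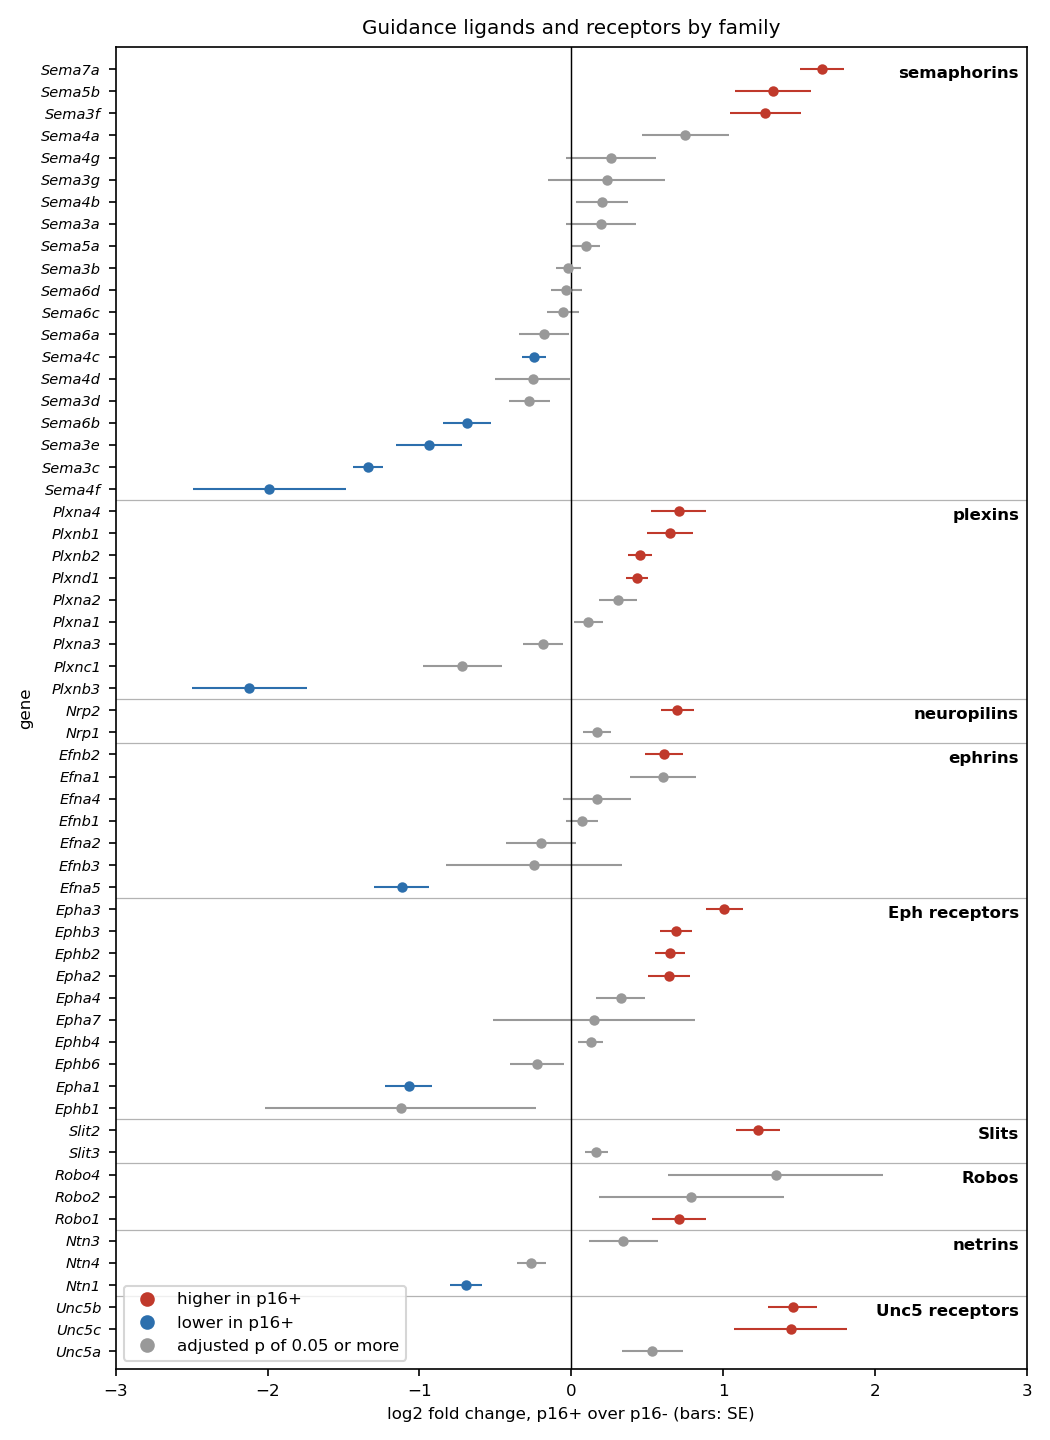
Log2 fold change of p16+ over p16- (x axis) for the 59 tested guidance genes (y axis), ordered within 9 families, with bars for the standard error of the fit. Coloured points passed an adjusted p of 0.05, 17 to the right and 9 to the left of 0, and grey points did not pass.

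The starts of 4 genes with large changes are shown because they belong to the semaphorin, Slit and netrin systems and went in both directions: Sema3c fell, and Sema7a, Slit2 and Unc5b rose. They were chosen after their values were seen. Each sequence runs from 250 bases before to 50 bases after the start in RefSeq's annotation of GRCm38.p6, read 5′ to 3′ on the strand of the gene. For Sema3c that start lies downstream of the GENCODE vM21 start, 17574281, so its whole window lies inside the counted gene. Capitals mark matches, on either strand, to the Sp1 motif GGGCGG and to the TATA box letters TATAAA, which do not overlap each other here. The positions are chr5:17574566-17574865 (plus strand) for Sema3c, chr9:57939862-57940161 (plus strand) for Sema7a, chr5:47982905-47983204 (plus strand) for Slit2 and chr10:60831532-60831831 (minus strand) for Unc5b.
Sema3c: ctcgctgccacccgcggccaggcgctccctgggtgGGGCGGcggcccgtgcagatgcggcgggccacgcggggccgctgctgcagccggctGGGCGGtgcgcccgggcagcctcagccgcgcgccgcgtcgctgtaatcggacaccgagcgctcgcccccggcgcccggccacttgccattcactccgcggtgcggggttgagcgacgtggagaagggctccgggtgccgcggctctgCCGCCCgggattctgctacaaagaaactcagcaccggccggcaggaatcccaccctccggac
Sema7a: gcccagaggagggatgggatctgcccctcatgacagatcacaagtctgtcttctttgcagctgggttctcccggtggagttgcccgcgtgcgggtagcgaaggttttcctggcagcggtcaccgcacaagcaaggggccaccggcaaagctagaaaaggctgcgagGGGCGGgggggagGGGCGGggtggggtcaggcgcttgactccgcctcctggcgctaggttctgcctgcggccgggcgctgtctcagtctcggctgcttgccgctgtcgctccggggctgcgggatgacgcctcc
Slit2: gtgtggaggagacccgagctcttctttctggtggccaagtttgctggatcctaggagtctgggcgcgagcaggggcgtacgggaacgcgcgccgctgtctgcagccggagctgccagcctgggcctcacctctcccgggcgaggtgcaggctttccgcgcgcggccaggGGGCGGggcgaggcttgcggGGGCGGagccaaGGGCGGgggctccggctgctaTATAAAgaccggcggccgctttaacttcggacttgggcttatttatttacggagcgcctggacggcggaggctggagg
Unc5b: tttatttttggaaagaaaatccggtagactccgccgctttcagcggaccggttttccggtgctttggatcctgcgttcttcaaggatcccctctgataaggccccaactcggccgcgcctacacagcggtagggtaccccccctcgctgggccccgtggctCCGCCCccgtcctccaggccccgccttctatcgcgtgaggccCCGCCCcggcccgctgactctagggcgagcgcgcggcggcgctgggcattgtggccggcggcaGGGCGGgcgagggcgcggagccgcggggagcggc
The Sp1 letters stood 3 times in the Sema3c, Slit2 and Unc5b windows and 2 times in that of Sema7a, so genes that fell and rose shared them, and TATAAA stood only in that of Slit2 among these 4. The AP-1 motif TGANTCA and the TEAD motif GGAATG, also searched on both strands, had no match in these 4 windows. RefSeq's table held 75 such windows for 59 of the 68 members. GGGCGG was present in 70.7% of them and in 35.7% of all 32851 windows of this length, and TATAAA in 2.7% and 13.6%. Their median content of G and C was 64.3%, against 52.7% over all windows, and it was 68.2% in the 16 windows of members that were higher and 64.0% in the 10 of members that were lower. TGANTCA was present in 4.0% of the members' windows and 7.8% of all, and GGAATG in 9 of the 75 windows and 14.7% of all. The windows with TATAAA both belonged to members that were higher, and GGAATG stood in 5 of 16 windows of higher and 1 of 10 of lower members. TGANTCA stood in 0 of 16 windows of higher and 2 of 10 of lower members, and GGGCGG in 11 of 16 and 8 of 10. These are matches of letters and say nothing of binding.

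Among the semaphorin ligands the most abundant gene fell and another rose to a similar level. Sema3c (chromosome 5, 17574281 to 17730268), a secreted class 3 semaphorin that signals through neuropilins and plexin D1, had 285, 225 and 225 CPM in p16+ and 587, 655 and 617 CPM in p16-. Every p16+ library was thus below every p16- library, by 2.53-fold (log2 change -1.34 with SE 0.10, adjusted p = 2.0e-07 by edgeR). Sema7a (chromosome 9, 57940112 to 57962865), which is held to the membrane by a lipid anchor and binds plexin C1 and integrin alpha1 beta1, had 90.5, 118 and 97.1 CPM in p16+ and 26.8, 41.0 and 29.4 CPM in p16-. It was higher in each p16+ library, by 3.15-fold (log2 change 1.65 with SE 0.14, adjusted p = 2.73e-06 by edgeR).
The TPM scale of transcript abundance divides by the gene's exonic length, so that levels can be roughly compared between genes. That length covers all annotated exons and can exceed the length of the transcripts present. In TPM Sema3c stood at 342 ± 27.4 in p16- and 135 ± 16.9 in p16+ (SD, n = 3 each), and Sema7a at 38.8 ± 9.83 and 122 ± 18.7. Sema3c made up 52.3% to 55.4% of the summed semaphorin TPM in p16- libraries and 25.1% to 30.5% in p16+ libraries. The share of Sema7a was 5.18% to 7.51% in p16- and 21.0% to 28.5% in p16+. In p16+ the TPM ranges of the pair overlapped, at 125 to 154 for Sema3c and 106 to 142 for Sema7a.

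Of the 20 semaphorin genes, all of which were tested, 3 were higher, 5 lower and 12 not called, and the median log2 fold change was -0.03. Sema3f, a secreted semaphorin that prefers neuropilin 2, had 9.30, 8.22 and 6.25 CPM in p16+ and 2.53, 3.05 and 4.22 CPM in p16-, a rise of 2.43-fold (adjusted p = 0.00109 by edgeR). Sema5b, a transmembrane semaphorin with thrombospondin repeats, had 9.33, 8.63 and 7.12 CPM against 2.06, 3.63 and 4.30 CPM, a rise of 2.51-fold (adjusted p = 0.00124). For both, the lowest p16+ library lay above the highest p16- library, but in both genes p16+ replicate 3 and p16- replicate 3 were the closest pair. Sema3b, the neighbour of Sema3f with a gap of 72.3 kb on chromosome 9, did not pass at 86.4, 77.8 and 78.6 CPM in p16+ and 90.9, 77.3 and 77.7 CPM in p16- (adjusted p = 0.919).
Sema3e, a secreted semaphorin that binds plexin D1 without a neuropilin, had 9.90, 5.80 and 5.11 CPM in p16+ and 11.0, 13.7 and 15.2 CPM in p16-, a fall of 1.91-fold (adjusted p = 0.0068). Its groups were separated by a small gap, since p16+ replicate 1 was near p16- replicate 1. Sema3d and Sema3a, its neighbours on chromosome 5, did not pass (adjusted p = 0.193 and 0.638). Sema6b, a transmembrane ligand of A-type plexins, had 10.4, 7.81 and 7.36 CPM against 14.8, 12.9 and 13.5 CPM (1.61-fold lower, adjusted p = 0.00633).
Of the class 4 transmembrane semaphorins, which include ligands of B-type plexins, 2 of 6 were lower and 0 higher. Sema4c had 80.4, 74.4 and 80.3 CPM in p16+ and 97.5, 87.3 and 93.8 CPM in p16-, a small difference of 1.19-fold (adjusted p = 0.0384) that passed in the full set and lost its call without any single library other than p16- replicate 2 (adjusted p = 0.0693 to 0.176). Sema4f was near the lower limit of measurement, with 27, 29 and 6 counts in p16+ and 72, 91 and 103 counts in p16- (log2 change -1.99 with SE 0.50, adjusted p = 0.0114). Without p16- replicate 3 its adjusted p was 0.0644, and the number of semaphorins called lower was then 3. The 12 semaphorins that were not called ranged in log2 fold change from -0.28 for Sema3d to 0.75 for Sema4a, and included Sema5a, Sema6c and Sema6d at 28.2 CPM or more in every library. The others not called were Sema3g, Sema4b, Sema4d, Sema4g and Sema6a.

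**Figure D2:**
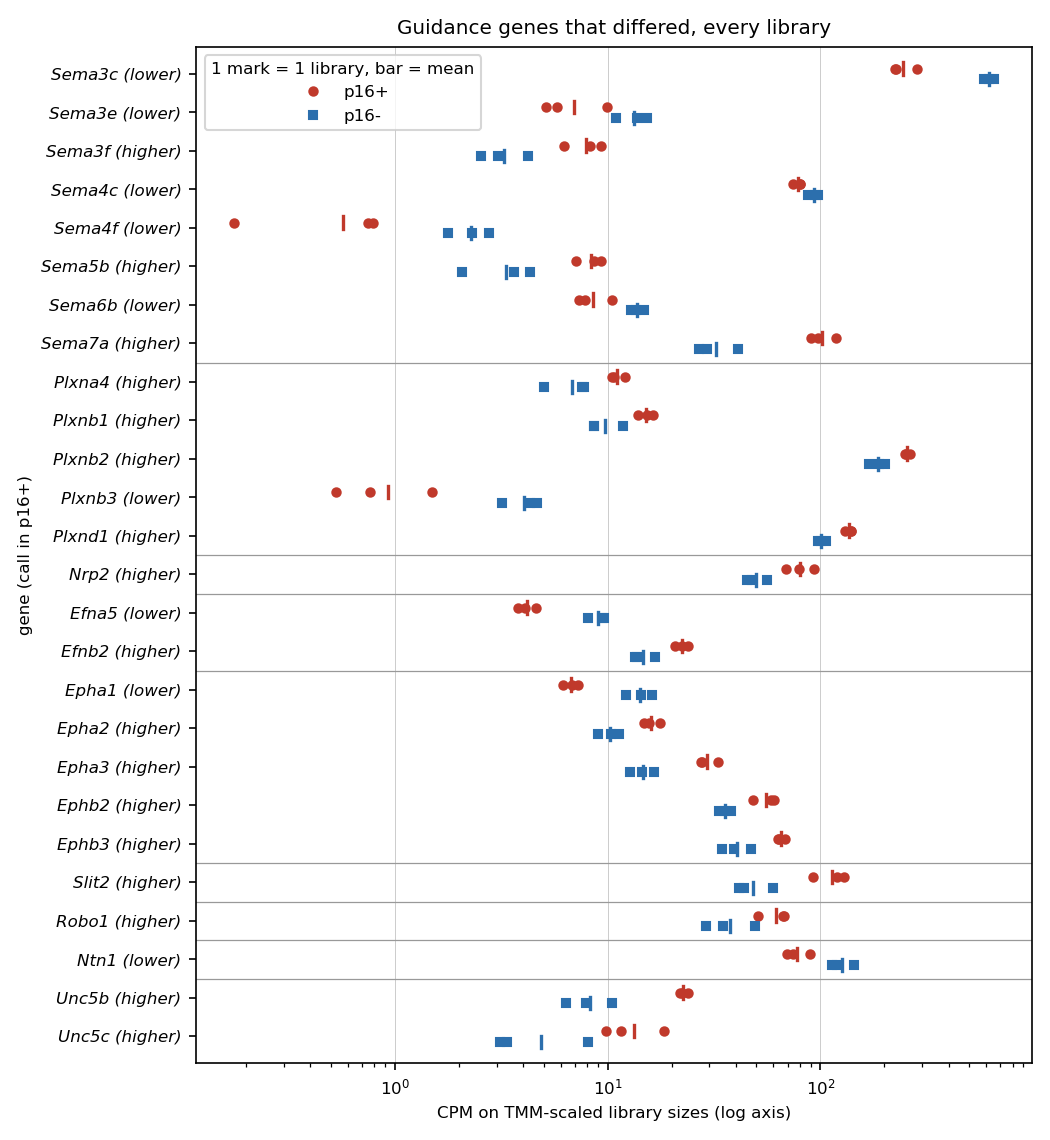
CPM on a log axis (x axis) of the 26 guidance genes that passed the test (y axis), with 1 mark per library and a bar at the mean of each group of 3. The groups do not overlap in any row, and the widest spread within a group is in Sema4f, Plxnb3 and Unc5c.

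Of the 9 plexins, the signalling receptors of semaphorins, 4 were higher, 1 was lower and 4 were not called. Plxnb2, the most abundant plexin and a receptor of class 4 semaphorins, had 250.5, 263 and 252 CPM in p16+ and 169, 202 and 188 CPM in p16- (log2 change 0.45 with SE 0.08, adjusted p = 0.000906 by edgeR). Plxnd1, the receptor of Sema3e and a partner of neuropilins for Sema3c, had 131, 139 and 140 CPM against 97.3, 100.1 and 106 CPM (0.43, SE 0.07, adjusted p = 0.000616). These rises, 1.37-fold and 1.35-fold, came with tight replicates in p16+. Plxnb1, the Sema4d receptor, had 15.2, 13.9 and 16.3 CPM in p16+ and 8.58, 8.60 and 11.8 CPM in p16- (1.57-fold, adjusted p = 0.00758). Plxna4, a partner of neuropilins and receptor of class 6 semaphorins, had 10.4, 10.7 and 12.1 CPM against 5.04, 7.54 and 7.74 CPM (1.63-fold, adjusted p = 0.0125), and lost the call without p16+ replicate 3 (adjusted p = 0.0643).
Plxnb3, a receptor of Sema5a, went the other way and was scarce, with 54, 28 and 18 counts in p16+ and 175, 126 and 173 counts in p16- (log2 change -2.12 with SE 0.38, adjusted p = 0.000858). Glial markers were lower in the same libraries: Sox10, the glial transcription factor, had 2.17, 1.80 and 3.30 CPM in p16+ and 10.6, 4.99 and 8.52 CPM in p16-. Their part in the values of Plxnb3 and Sema4f was not tested.
Plxna1, the second most abundant plexin, did not pass at 185, 187 and 184 CPM in p16+ and 145, 194 and 176 CPM in p16- (adjusted p = 0.494), and Gm26811 on the opposite strand covers 10.7% of its exonic length. Plxnc1, the plexin receptor of Sema7a, had 2.26, 3.00 and 4.61 CPM in p16+ and 5.36, 5.27 and 5.59 CPM in p16- and missed the threshold (adjusted p = 0.0744). Plxna2 and Plxna3 were not called either.

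Of the 2 neuropilins, the coreceptors of class 3 semaphorins, Nrp2 was higher. It had 68.9, 93.6 and 79.0 CPM in p16+ and 45.2, 55.9 and 47.6 CPM in p16- (log2 change 0.70 with SE 0.11, adjusted p = 0.000262 by edgeR). Nrp1, the more abundant one, had 130, 132 and 154 CPM against 108, 133 and 128 CPM, with overlapping groups (adjusted p = 0.248). The TPM of Nrp1 was 55.7 ± 5.72 in p16+ and 49.6 ± 6.56 in p16-, and that of Nrp2 26.8 ± 4.44 and 16.5 ± 2.23 (SD, n = 3 each).

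Eph receptors, the receptor tyrosine kinases for ephrins, were called higher in 4 of 10 tested genes and lower in 1. Epha3 had 27.7, 27.5 and 33.1 CPM in p16+ and 16.5, 12.8 and 14.5 CPM in p16-, a rise of 2.01-fold (log2 change 1.01 with SE 0.12, adjusted p = 2.99e-05 by edgeR). Ephb3 had 63.2, 68.0 and 64.0 CPM against 39.2, 47.3 and 34.5 CPM (0.69, SE 0.10, adjusted p = 0.000177). Ephb2 had 48.4, 60.4 and 58.4 CPM against 33.2, 37.9 and 35.5 CPM (0.65, SE 0.10, adjusted p = 0.00019). All p16+ libraries lay above all p16- libraries in these 3 genes, and the calls held with each library left out. Epha2, a receptor of A-class ephrins, had 17.6, 14.8 and 15.6 CPM in p16+ and 8.97, 11.3 and 10.4 CPM in p16- (0.64, SE 0.14, adjusted p = 0.00405).
Epha1 was lower, with 6.82, 7.27 and 6.16 CPM in p16+ and 12.2, 14.3 and 16.1 CPM in p16-, a fall of 2.10-fold (adjusted p = 0.000146). Ephb4, the ephrin B2 receptor of veins and the Eph gene with the highest mean level per length, at 40.4 ± 2.75 TPM in p16+ and 37.1 ± 1.76 TPM in p16- (SD, n = 3 each), did not pass (adjusted p = 0.367). Epha4, Epha7, Ephb1 and Ephb6 were not called, and Epha5, Epha6, Epha8 and Epha10 were too low to test.

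Ephrins showed 1 rise and 1 fall among 7 tested genes. Efnb2, the transmembrane ligand of EphB receptors, had 22.2, 20.7 and 23.9 CPM in p16+ and 13.4, 16.7 and 13.7 CPM in p16- (1.53-fold higher, adjusted p = 0.00245 by edgeR). Efna5, a lipid-anchored ligand of EphA receptors, had 3.77, 4.60 and 4.09 CPM against 9.37, 9.58 and 8.09 CPM (2.17-fold lower, adjusted p = 0.000379). Both calls held with each library left out. Efnb1, the most abundant ephrin at 38.3, 38.0 and 33.9 CPM in p16+ and 30.0, 39.1 and 35.8 CPM in p16-, did not pass (adjusted p = 0.722). Efna1 had 6.74, 6.45 and 6.63 CPM against 4.57, 5.32 and 3.14 CPM and missed the threshold (adjusted p = 0.0743). Efna3 and Efna4 lie within 10.4 kb of each other on chromosome 3 and are overlapped on the opposite strand over 14.1% and 10.5% of their exonic length. Efna3 was too low to test, and Efna4 did not pass (adjusted p = 0.687), nor did Efna2 and Efnb3.

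In the Slit and Robo system Slit2 and Robo1 were higher, Robo1 in a call that depended on single libraries, and the more abundant Slit3 was not called. Slit2 (chromosome 5, 47983138 to 48307733), a large secreted ligand of Robos, had 91.8, 119 and 129 CPM in p16+ and 41.5, 60.1 and 43.6 CPM in p16-, a rise of 2.35-fold (log2 change 1.23 with SE 0.15, adjusted p = 6.37e-05 by edgeR). Slit3 had 368, 390.1 and 389 CPM against 321, 364 and 338 CPM, which did not overlap but did not pass (adjusted p = 0.178). Per length Slit3 was the far more abundant of the pair, at 248 ± 11.5 TPM in p16+ and 221 ± 19.6 in p16- (SD, n = 3 each). Slit2 made up 5.62% to 7.34% of the summed Slit TPM in p16+ libraries and 2.98% to 3.79% in p16- libraries. These shares depend on the exonic lengths used, 25433 bases for Slit2 and 6067 for Slit3. Without division by length, mean CPM was 113 for Slit2 and 382 for Slit3 in p16+, and 48.4 and 341 in p16-. Robo1, the main Robo of these cells, had 51.1, 66.4 and 67.2 CPM in p16+ and 28.9, 49.3 and 34.8 CPM in p16- (log2 change 0.71 with SE 0.18, adjusted p = 0.0194). The lowest p16+ value was close to the highest p16- value, and the call was lost on leaving out either replicate 2 or 3 of p16+ or either replicate 1 or 3 of p16- (adjusted p = 0.0591 to 0.0676). Robo2 had at most 48 counts in a library, and Robo4, known as a Robo of endothelium, at most 39. Neither passed (adjusted p = 0.445 and 0.233).

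In the netrin system 1 of 3 tested ligands, Ntn1, was lower and 2 were not called, while 2 of the repulsive receptors were higher. Ntn1 (chromosome 11, 68209364 to 68400823), which encodes the secreted protein netrin 1, had 89.6, 69.9 and 74.0 CPM in p16+ and 114, 119.9 and 144 CPM in p16-, a fall of 1.62-fold (log2 change -0.69 with SE 0.10, adjusted p = 0.000193 by edgeR). Unc5b (chromosome 10, 60762593 to 60831581) had 22.2, 23.9 and 21.8 CPM against 6.34, 10.5 and 7.93 CPM, a rise of 2.75-fold (1.46, SE 0.16, adjusted p = 9.15e-06). Unc5c had 11.5, 18.4 and 9.81 CPM against 3.12, 8.10 and 3.36 CPM, a rise of 2.72-fold (1.45, SE 0.37, adjusted p = 0.0262). The p16+ libraries of Unc5b were tightly grouped, whereas Unc5c was high in replicate 2 of both groups. Without p16- replicate 1 or p16- replicate 3 the adjusted p of Unc5c was 0.138 or 0.0795, and without p16- replicate 2 its log2 fold change was 2.03 (adjusted p = 3.13e-05).
Unc5a had 8.996, 15.2 and 12.4 CPM in p16+ and 6.59, 10.2 and 8.55 CPM in p16- and missed the threshold (adjusted p = 0.0855). Ntn4, a laminin-like netrin of basement membranes and the netrin with the highest mean level per length, had 71.0, 66.7 and 63.2 CPM against 68.2, 83.2 and 89.5 CPM (adjusted p = 0.077), with overlapping groups, and Ntn3 was not called (adjusted p = 0.365). Of the receptors outside the member families, neogenin (Neo1) did not pass at 209, 206 and 216 CPM in p16+ and 163, 185 and 196 CPM in p16- (adjusted p = 0.0895), and Dcc was at or near 0.

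**Figure D3:**
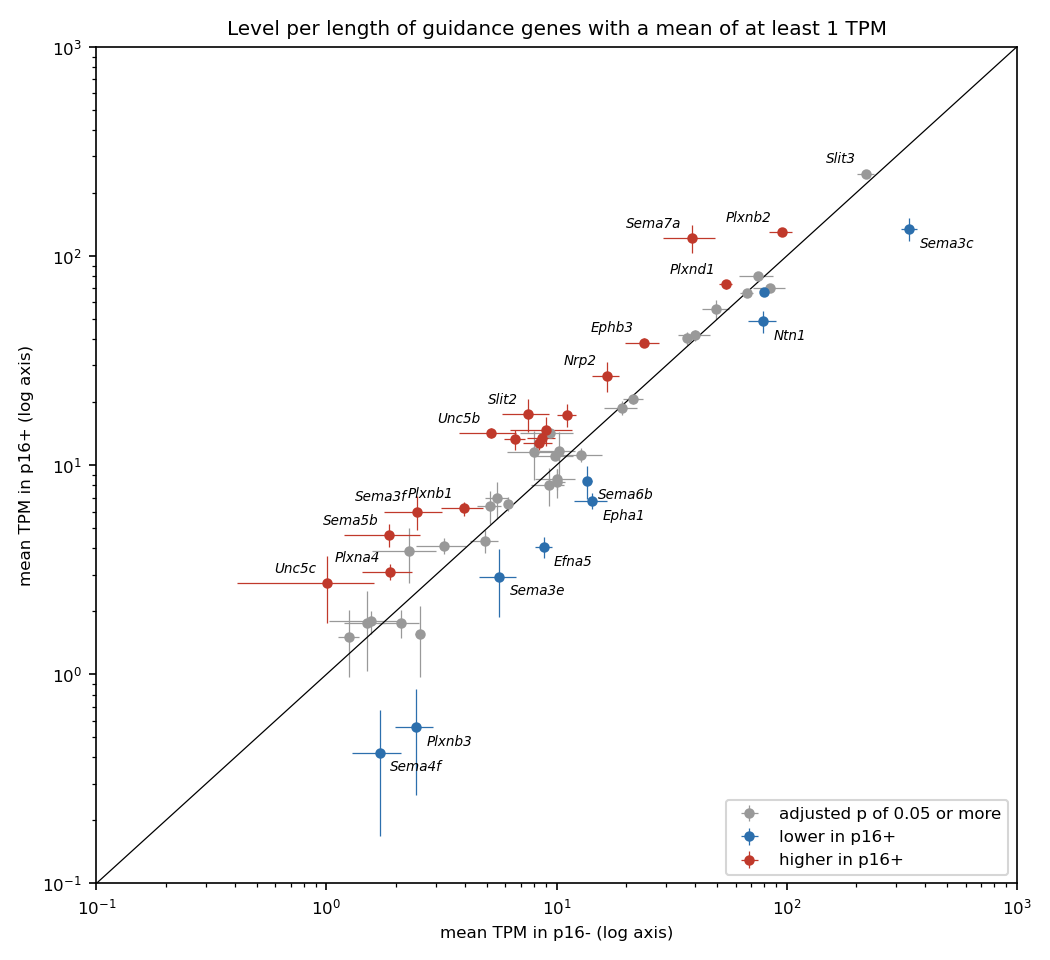
Mean TPM in p16- (x axis) against mean TPM in p16+ (y axis), both on log axes, for guidance genes with a mean of at least 1 TPM, with bars for the SD of 3 libraries and a diagonal at equal levels. Sema3c lies far below the diagonal at 342 against 135 TPM and Sema7a far above it at 38.8 against 122 TPM, while Slit3 lies near it.

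By level per length, the systems were expressed unevenly. Of the 68 members 28 had a mean of at least 10 TPM over all libraries, 11 at least 50 TPM, and 14 were under 1 TPM. In p16- cells Sema3c was first and Slit3 second, and their ranges were separate from each other and from the third, Plxnb2. In p16+ cells Slit3 was first at 235 to 255 TPM, and the next 3, Sema3c, Plxnb2 and Sema7a, overlapped between neighbours. Sema7a was the 12th most abundant member in p16- and the 4th in p16+, and Slit2 the 33rd and the 18th. These places depend on the exonic lengths used, and that of Slit2 is 25433 bases.
The receptors' share of the summed TPM of all members was 28.4% to 30.0% in p16- and 36.1% to 38.3% in p16+. Sema3c, a ligand, weighs on this share, at 313 to 367 TPM in p16- and 125 to 154 TPM in p16+. The share without Sema3c was not computed. Receptors alone summed to 554 to 607 TPM in p16+ and 407 to 507 TPM in p16-, and ligands to 957 to 988 against 1026 to 1184 TPM. Summed over each family, Eph receptors had 142 to 149 TPM in p16+ and 113 to 125 TPM in p16-, and plexins 301 to 323 against 219.9 to 278 TPM. Semaphorins had 476 to 505 TPM in p16+ and 598 to 663 TPM in p16-, and netrins 118 to 133 against 142 to 189 TPM. In these 4 families the groups of 3 libraries did not overlap, whereas ephrins did, at 89.6 to 95.0 and 77.8 to 100.6 TPM. Slits overlapped slightly in TPM, at 248.6 to 274 in p16+ and 208 to 249.9 in p16-. In summed CPM the Slits did not overlap, at 460 to 518 in p16+ and 362 to 424 in p16-. Without Sema3c the semaphorin sum went the other way, at 351 to 374 TPM in p16+ and 286 to 296 TPM in p16-. These sums are descriptions, without a test.

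**Figure D4:**
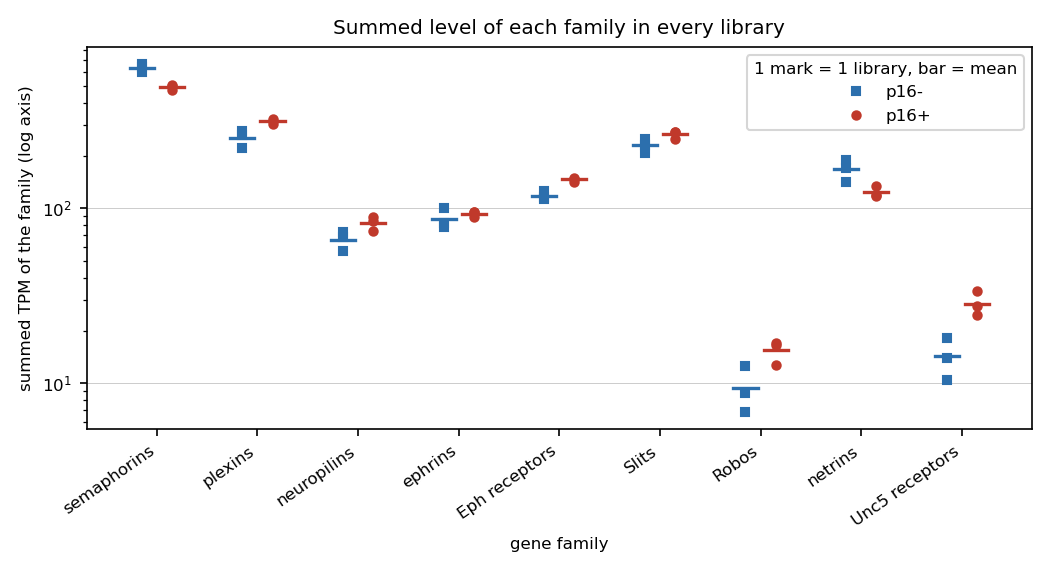
Summed TPM of each of the 9 families (x axis) on a log axis (y axis), with 1 mark per library and a bar at the mean of 3. Semaphorins and netrins lie lower in the p16+ libraries, the semaphorins through Sema3c, while plexins, neuropilins, Eph receptors, Robos and Unc5 receptors lie higher, and ephrins and Slits overlap.

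The called genes did not lie equally far from the other group in every library. In 11 of the 17 genes called higher, p16- replicate 2 had the highest p16- value and so lay nearest to the p16+ libraries, as in Sema7a, Slit2, Robo1, Unc5b and Unc5c. With that library left out 19 members were called higher and 9 lower. The same library had the lowest Cdkn2a value, 1.77 CPM, and the lowest Sox10 value of its group. For the 9 genes called lower, p16- replicate 1 was nearest to p16+ in 5 and p16- replicate 2 in 3. Among the p16+ libraries replicate 1 lay nearest to p16-, in 9 of the 17 genes called higher and 6 of the 9 called lower. Without it 18 members were called higher and 8 lower. These counts were made for the members and not for all called genes. On the first principal component of log2 CPM over all tested genes, p16+ replicates 1, 2 and 3 lay at -26.1, -43.0 and -42.8. The p16- replicates lay at 48.2, 25.8 and 38.0. The nearness of p16- replicate 2 and p16+ replicate 1 was thus not particular to the guidance genes.

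The 9 untested members had 10 counts or fewer in every library. Epha6, Epha8 and Epha10 had 0 counts in all 6, and Unc5d and Robo3 had counts only in p16- replicate 2, 4 and 10. Slit1, Ntn5, Efna3 and Epha5 had between 0 and 9 counts. These genes include receptors best known from neurons, and at this depth a count of 3 in a library stands for 0.0737 to 0.0876 CPM.

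Other ligands and receptors of guidance outside the member families were taken from a list of general knowledge. Of 32 found in the files 29 were tested, and 4 were higher, 6 lower and 19 not called. That was 34.5% called against 16.7% of all tested genes, and the median log2 fold change was 0.05. Not all of the 6 lower genes are named below. Gpc1, a heparan sulfate proteoglycan that binds Slits, had 112, 127 and 119 CPM in p16+ and 40.1, 51.5 and 41.8 CPM in p16- (log2 change 1.43 with SE 0.10, adjusted p = 1.59e-07 by edgeR), with 18.9% of its exonic length overlapped by other genes. Itga1, the alpha chain of the integrin that binds Sema7a, had 112, 142 and 153 CPM against 64.4, 77.7 and 79.8 CPM (0.87, SE 0.11, adjusted p = 3.87e-05). Draxin, which encodes a secreted protein that binds netrin 1 and Dcc, had 4.04, 6.43 and 4.99 CPM against 2.02, 2.32 and 1.59 CPM (1.38, SE 0.27, adjusted p = 0.00191). The p16+ libraries lay above the p16- libraries in each of these 3 genes.
The neural adhesion genes L1cam and Nrcam, whose proteins join neuropilin complexes, were among those lower, whereas Chl1, a related adhesion gene of the L1 family, was higher. Also lower was Cdon, whose protein is a hedgehog coreceptor. L1cam had 2.94, 2.45 and 2.31 CPM in p16+ and 14.996, 9.58 and 14.997 CPM in p16- (adjusted p = 1.36e-06 by edgeR). Chl1 had 91.0, 137 and 136 CPM in p16+ and 54.5, 81.9 and 59.0 CPM in p16- (adjusted p = 0.0128 by edgeR). Nrcam had 4.51, 2.23 and 4.44 CPM against 19.1, 15.2 and 21.6 CPM (adjusted p = 2.82e-06), and Cdon 209.8, 203 and 213 CPM against 261, 299 and 298 CPM (adjusted p = 0.000682). Glial markers, given above, were lower in the same libraries as L1cam and Nrcam, and their part in these values was not tested.

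Genes of cytoplasmic proteins that carry guidance signals to the actin cytoskeleton went both ways. Of 56 such genes 55 were tested, and 4 were higher, 8 lower and 43 not called, with 21.8% called against 16.7% of all tested genes and a median log2 fold change of -0.01. Mical2, an enzyme of a family that oxidizes actin downstream of plexins, had 73.4, 69.3 and 59.1 CPM in p16+ and 26.5, 38.3 and 31.8 CPM in p16- (log2 change 1.06 with SE 0.12, adjusted p = 1.25e-05 by edgeR). Srgap1, a GTPase-activating protein that binds Robo1, had 40.3, 42.9 and 36.4 CPM against 62.7, 63.0 and 63.8 CPM (-0.66, SE 0.08, adjusted p = 3.65e-05). The kinase gene Fyn had 104, 101 and 94.3 CPM against 179, 172 and 179 CPM (-0.82, SE 0.07, adjusted p = 1.52e-06). In these 3 genes the groups were well apart. Ablim1, an actin-binding protein gene, Trio, a guanine nucleotide exchange factor gene of netrin signalling, and Rnd1, a plexin-binding GTPase gene, were lower, with log2 changes of -0.93, -0.66 and -0.77.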

How the data were processed

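Per the file headers, the authors ran featureCounts 1.6.0 in paired mode on GENCODE vM21 exons and deposited the raw count of each gene. The recorded command set nothing for strandedness, multi-mapping or feature overlap, and the library kit named in the labels' protocols does not mark strand, so fragments of overlapping genes on opposite strands cannot be told apart. STAR 2.7.3a, bcl2fastq and GRCm38.p6 are named in the submitters' processing notes. All 55536 identifiers matched vM21 in name and position.

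Counts were filtered with filterByExpr, which kept 15903 genes, scaled with TMM, and tested with edgeR 4.0.16 (glmQLFit with robust estimation, glmQLFTest, R 4.3.3), group alone in the model, over all tested genes, with Benjamini-Hochberg adjustment and a threshold of 0.05. Fold changes are p16+ over p16-, and the SE of a log2 fold change is its size divided by the root of the F statistic. TPM was computed from counts and the deposited exonic length. The procedure was tested on simulated data. Alternatives were RLE, upper-quartile and no factors, no filter and a CPM of at least 1 in 3 libraries, DESeq2 1.42.0, a replicate block, and each library left out. Members and lists were chosen with earlier results of these data known. Named with values were all called members, the most abundant of each family, and up to 6 called genes of each pathway list. Other members given with values, and Neo1, Dcc, Chl1, Tek and Sox10, were chosen after their values were seen. The list gene Hjv had no row under that symbol.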

Additional observations from a re-analysis of the deposited data

How the results depend on the processing

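Of the 26 called members 21 were called in each of the 13 alternatives, and no member with a call in any setting changed direction. Over all alternatives 1887 to 3114 genes were called, against 2660, and 15 to 19 members were called higher and 7 to 11 lower, against 17 and 9. With DESeq2, RLE or upper-quartile factors and the stricter filter the same 26 members were called and no other. The 5 members that lost the call in some alternative, Sema4c, Sema4f, Plxna4, Robo1 and Unc5c, lost it only when a library was left out. A further 6 members, Sema4a, Plxna2, Plxnc1, Efna1, Ntn4 and Unc5a, passed in at least 1 alternative.

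With the replicate number as a block, 3114 genes were called, and 19 members higher and 10 lower. Deviations from the group means of same-numbered libraries correlated at 0.0284, 0.0821 and -0.0046, and not every library correlated best with its own number. Such small correlations cannot decide whether the libraries were paired. The labels do not say so, and the main model held no block. With the block, SE was smaller for Robo1 (0.0945, adjusted p = 1.2e-05 by edgeR) and Unc5c (0.179, adjusted p = 2.99e-06). For Sema3f and Sema4f it was larger, at 0.247 and 0.541 against 0.235 and 0.502. Leaving out 1 library gave 1887 to 2567 called genes, 15 to 19 members higher and 7 to 9 lower. FPKM in place of TPM keeps the order of genes within a library by construction, so it tests nothing. Among scarce members, Robo4 and Ephb1 had standard errors of 0.71 and 0.89 on the log2 scale, and a ratio of 2.55 for Robo4 did not pass.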
